A study of Mus musculus with 68 samples.

Results

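The genes described here are the mouse Wnt ligands, their Frizzled receptors and Lrp co-receptors, the R-spondins and their Lgr receptors, the secreted antagonists of the Sfrp, Dkk, Frzb and Wif1 type, and the nuclear factors Lef1 and Tcf7 with the target Axin2. They were chosen by gene symbol, from the array's own annotation, and number 51 of the 24583 gene names measured. Of these, 19 are Wnt ligands, 10 are Frizzled receptors, 10 are secreted antagonists, 4 are R-spondins, 3 are Lgr receptors, 2 are co-receptors and 2 are transcription factors. Where a gene had several probes, the one with the highest mean over the 68 arrays was used, which concerned 23 genes.

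The study hybridised RNA from laser-microdissected mouse lung, cut either from the alveolar septa or from the pulmonary vessels, to single-colour arrays, with 34 arrays for each compartment. At 3 months there were wild-type animals and animals labelled as Fgf10 knock-down (Fgf10+/- in the treatment notes), each kept in room air or exposed to cigarette smoke. At 8 months there were control animals after room air or smoke, and animals labelled as overexpressing Fgf10 after smoke, with a further week of treatment with or without doxycycline that the labels do not tie to single groups. Each of the 14 groups held 5 arrays, except the knock-down groups in room air, which held 4. Strain, age at the start, the promoter behind the overexpression and which septa and vessel arrays came from one animal are not stated in the labels used. The 3-month and 8-month animals therefore differ in exposure time, in the last treatment week and possibly in strain, and these cannot be told apart. Sex entered no fit, and Xist levels ran from 4.37 to 15.48 over septa arrays and from 3.99 to 14.81 over vessel arrays.

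Wnt proteins are secreted lipid-modified ligands that bind a Frizzled receptor and an Lrp co-receptor. In the branch that runs through beta-catenin, this stops the destruction of beta-catenin, which then acts with Lef1 and Tcf7 on target genes such as Axin2. R-spondins, through Lgr receptors, keep Frizzled receptors at the cell surface, whereas Sfrp proteins, Frzb and Wif1 bind the ligands and Dkk proteins mostly block the co-receptors. In the adult lung, Wnt signals from fibroblasts are known to maintain alveolar type 2 cells, and Wnt5a and Wnt11 act mainly outside the beta-catenin branch.

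All values are deposited log2 intensities, and levels of different probes are not compared with each other. The 40th percentile of each array lay at 5.32, and levels under it were treated as near background, with no exact size. Among the arrays, FGF10_CS_Septa replicates 5 and 1 had median correlations of -0.0176 and 0.243 with the other septa arrays, and FGF10_CS_Vessel replicate 5 had 0.456 with the other vessel arrays, while every other array reached at least 0.691. Results that rest on these 3 arrays are given with and without them. For 1 array titled as wild-type smoke septa, replicate 4, another field says knock-down, and the title was followed. Fgf10 itself had group means from 5.82 to 9.01 in septa and from 5.24 to 7.31 in vessel, and in room air septa the knock-down mean was 8.36 ± 0.60 (SD, n = 4) against 7.71 ± 0.58 (SD, n = 5) in wild type. The probe thus showed no lower Fgf10 level in the room air knock-down septa, and directions that involve the knock-down refer to the libraries as labelled.

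The compartments were compared first, since every condition holds both. The promoters of Sfrp2, Wnt3a and Wnt7a are shown here because these Wnt genes had the largest differences between septa and vessel, and that of Axin2 because it is the target described with them. They are the 250 bases before the RefSeq start, on GRCm38.p6, read 5′ to 3′, with GC boxes (GGGCGG, or CCGCCC on the other strand, overlaps counted) in capitals.
Sfrp2 (chr3:83766071-83766320, plus strand): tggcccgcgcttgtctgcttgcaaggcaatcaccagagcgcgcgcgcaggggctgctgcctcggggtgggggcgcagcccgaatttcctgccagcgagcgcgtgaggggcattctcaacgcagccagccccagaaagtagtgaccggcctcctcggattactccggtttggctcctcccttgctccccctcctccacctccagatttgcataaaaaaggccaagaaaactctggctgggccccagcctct
Wnt3a (chr11:59290752-59291001, minus strand): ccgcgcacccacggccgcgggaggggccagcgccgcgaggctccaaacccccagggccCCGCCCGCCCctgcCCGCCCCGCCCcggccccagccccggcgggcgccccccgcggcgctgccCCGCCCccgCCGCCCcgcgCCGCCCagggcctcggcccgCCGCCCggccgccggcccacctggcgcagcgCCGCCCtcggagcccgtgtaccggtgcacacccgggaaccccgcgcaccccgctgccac
Wnt7a (chr6:91411354-91411603, minus strand): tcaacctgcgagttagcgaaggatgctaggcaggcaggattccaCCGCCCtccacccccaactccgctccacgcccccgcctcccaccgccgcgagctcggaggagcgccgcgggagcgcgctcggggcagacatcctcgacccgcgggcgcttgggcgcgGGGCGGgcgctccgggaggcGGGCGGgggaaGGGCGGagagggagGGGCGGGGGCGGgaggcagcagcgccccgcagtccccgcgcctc
Axin2 (chr11:108920099-108920348, plus strand): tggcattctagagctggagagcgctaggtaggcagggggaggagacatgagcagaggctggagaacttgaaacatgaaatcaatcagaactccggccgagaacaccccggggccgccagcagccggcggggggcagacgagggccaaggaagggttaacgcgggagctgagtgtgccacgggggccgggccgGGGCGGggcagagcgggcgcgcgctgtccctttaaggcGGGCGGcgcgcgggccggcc
Sfrp2 held 0 GC boxes in this window, Axin2 held 2, Wnt7a held 6 and Wnt3a held 9, and 32.7% of the 32851 promoters of the table held at least 1. The GC content was 63.6% for Sfrp2, 69.2% for Axin2, 77.6% for Wnt7a and 87.6% for Wnt3a, against a median of 52.4% over all promoters. The core sequence bound by Tcf and Lef factors, CTTTGAT on either strand, was found in none of these 4 windows. Of the 34 Wnt genes whose promoters were searched, 2 held it (Wnt5b and Wnt11), a share of 5.88%. Fzd8 and Wnt8a were left out of these 34. Over all 27025 genes the share was 3.72%, counted without such an exclusion, so these shares are not directly comparable. These matches describe the letters in the window only.

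Across all conditions, 11 Wnt genes were higher in septa and 6 were lower, of 50 tested, and 1 (Wnt16) was too dim to test. The same limma test with Benjamini-Hochberg adjustment over all genes called 11% of 24150 genes higher and 8.85% lower, 19.8% together, so the share of Wnt genes called, 17 of 50, is above that of all genes, with no test of the list. Without the 3 low-correlation arrays it called 20 of 50, against 32.4% of all genes. The median difference was 0.01 on the log2 scale over the Wnt genes and -0.01 over all genes. Ligands made up 4 of the higher genes and Frizzled receptors 3, while secreted antagonists made up 4 of the lower ones. Of these, Dkk2 entered the test through its vessel arrays, of which 13 of 34 lay above the 40th percentile, with a near-background median of 4.915. Too few of its septa arrays were above background for a test within septa. Its call and its place in these counts therefore rest on that filter. The comparison was drawn from 7 group means on each side, and all differences below are septa minus vessel on the log2 scale with the standard error of the fit over 68 arrays. In these bulk samples, fewer cells of a type and less RNA per cell cannot be told apart.

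**Figure D1:**
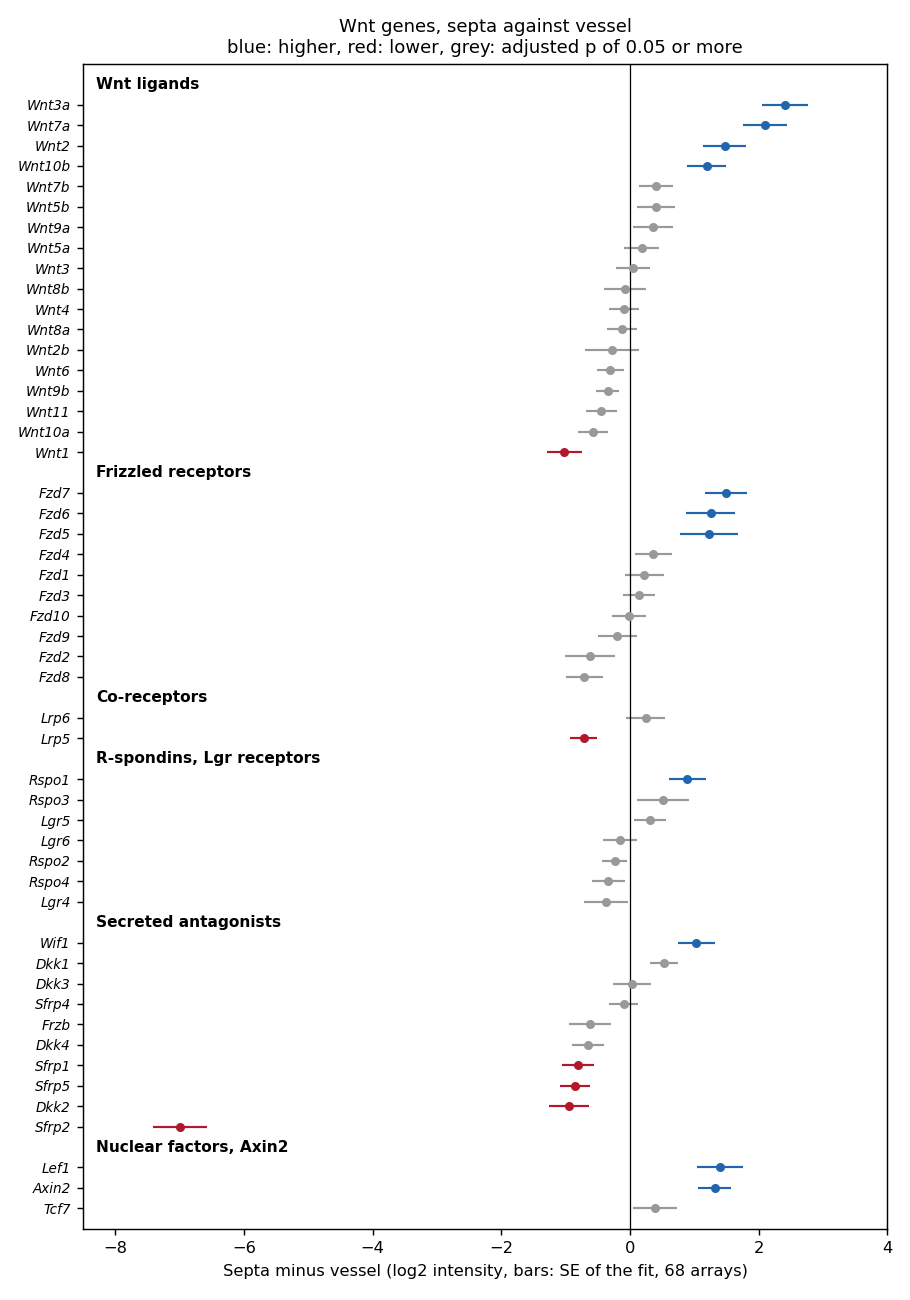
Septa minus vessel difference of the 50 Wnt genes tested, on the log2 scale, grouped by role, with points at the estimate and bars of 1 standard error over 68 arrays. Sfrp2 stands at -6.99, far to the left of every other gene, and Wnt3a at 2.41 is the furthest to the right.

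Wnt3a, a ligand of the beta-catenin branch, had the largest rise in septa. Its septa levels ran from 3.88 to 10.58 with a median of 9.0, and its vessel levels from 3.70 to 9.90 with a median of 6.13. The ranges overlapped, but 32 of 34 septa arrays lay above the vessel median. The difference was 2.41 ± 0.36 (limma, adjusted p = 4.41e-07), with no exact size, since only 22 of 34 vessel arrays lay above the 40th percentile. In septa, the 2 lowest Wnt3a values, 3.88 and 4.54, came from smoke-exposed knock-down arrays (replicates 1 and 3). In that condition the difference was -0.11 (adjusted p = 0.959), whereas in the 6 other conditions Wnt3a was between 1.88 and 3.72 higher in septa, past the threshold in wild-type smoke and in the overexpressing group.

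Wnt7a, a ligand known from limb patterning and brain vessel growth, followed. Septa levels ran from 5.65 to 11.96 with a median of 9.95, and vessel levels from 4.48 to 12.07 with a median of 7.24. Of the septa arrays, 33 of 34 lay above the vessel median, and the exception was FGF10_CS_Septa replicate 1 at 5.65. The difference was 2.10 ± 0.34 (limma, adjusted p = 3.57e-06), and a second probe gave 2.61 ± 0.39. Both probes passed when every probe was tested on its own. By condition, Wnt7a was higher in septa in 7 of 7, from 0.06 in the smoke-exposed knock-down to 3.72 in the 8-month smoke control.

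Wnt2, a ligand of lung fibroblasts that is needed for lung specification, and Wnt10b also passed. Wnt2 lay between 4.58 and 11.17 in septa (median 7.78) and between 4.45 and 10.15 in vessel (median 6.16), a difference of 1.47 ± 0.33 (limma, adjusted p = 6.62e-04). Although the ranges overlapped, 31 of 34 septa arrays exceeded the vessel median, and the direction was the same in 7 of 7 conditions. Wnt10b differed by 1.19 ± 0.30 (limma, adjusted p = 0.00255), with medians of 7.35 in septa and 6.13 in vessel, but its dimmer probe differed by only 0.16 and did not pass. Wnt1 was the lone ligand lower in septa, by 1.02 log2 units (-1.02 ± 0.27, adjusted p = 0.0041). Its medians were 7.10 in septa and 8.05 in vessel, and 31 of 34 vessel arrays lay above the septa median.

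The 13 other ligands tested did not pass. Wnt5a, the best-known ligand outside the beta-catenin branch, was above the 40th percentile on 33 of 34 septa arrays and on 34 of 34 vessel arrays, with medians of 11.42 and 11.33 and a difference of 0.18 ± 0.27. Wnt11 differed by -0.45 ± 0.25 and Wnt4 by -0.10 ± 0.23. Wnt5b and Wnt7b were each 0.40 higher in septa by their brightest probe, without passing, whereas a dimmer probe gave -0.66 for Wnt5b and -0.79 for Wnt7b and passed in the opposite direction. Their compartment difference therefore depends on the probe. Wnt6 differed by -0.31 over all arrays and by -0.46 without the 3 arrays, where it passed (adjusted p = 0.0335). Wnt2b, Wnt3, Wnt8a, Wnt8b, Wnt9a, Wnt9b and Wnt10a differed by between -0.58 for Wnt10a and 0.36 for Wnt9a. Wnt3, Wnt8a and Wnt16 were above the 40th percentile on at most 4 of 34 septa arrays each.

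**Figure D2:**
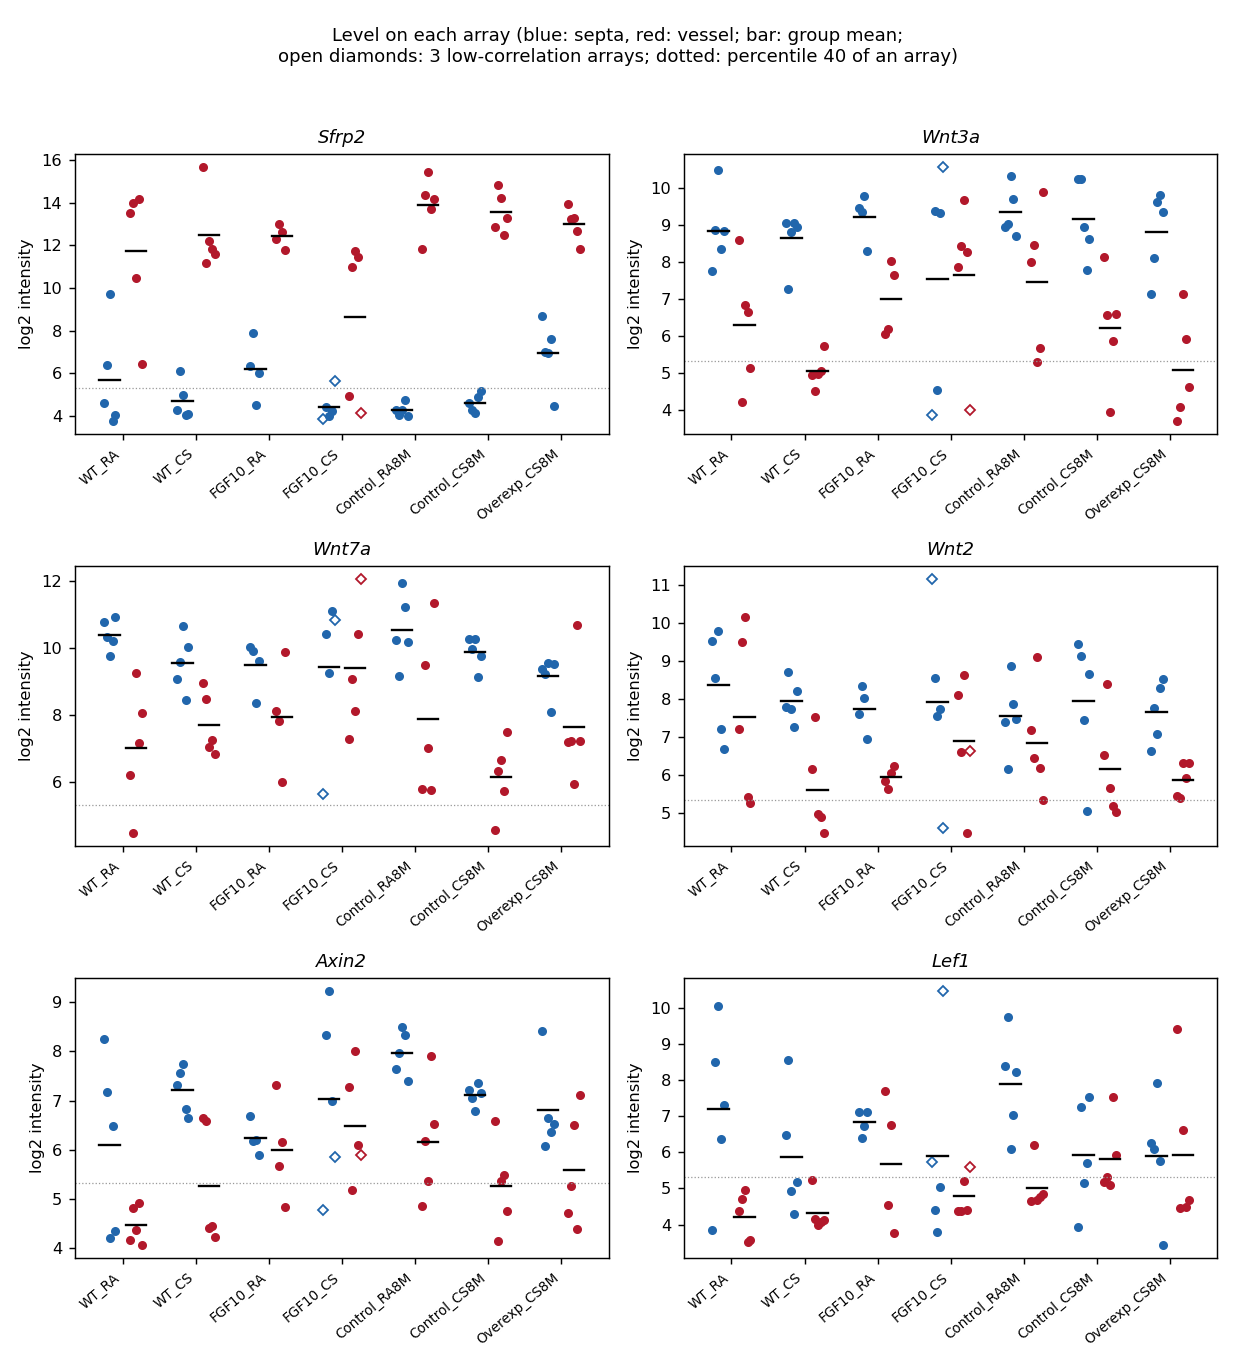
Log2 intensity of 6 Wnt genes on each of the 68 arrays, by condition, with septa in blue, vessel in red, a bar at each group mean, open diamonds for the 3 low-correlation arrays and a dotted line at 5.32. Sfrp2 lies high on vessel arrays, apart from 4.92 and 4.13 in the smoke-exposed knock-down and 6.44 in wild-type room air.

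Among the receptors, Fzd7, Fzd6 and Fzd5 were higher in septa. Fzd7, a receptor known from stem cells of several epithelia, had septa levels from 4.70 to 13.00 (median 8.56) and vessel levels from 3.53 to 10.12 (median 7.78). The difference was 1.49 ± 0.33 (limma, adjusted p = 4.77e-04), with 29 of 34 septa arrays above the vessel median. It was not alike over the conditions: the estimate was 3.67 in wild-type room air and 3.32 in wild-type smoke, and between -0.22 and 2.20 in the 5 others. The test of whether the difference varies over conditions did not pass for Fzd7 (limma F test, adjusted p = 0.236, and 0.104 without the 3 arrays).

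Fzd6, which acts in planar polarity of hair, differed by 1.25 ± 0.38 (limma, adjusted p = 0.0138), and its levels ranged from 4.22 to 11.39 in septa and from 3.94 to 12.44 in vessel. Fzd5 differed by 1.23 ± 0.46 (limma, adjusted p = 0.0476), but a dimmer Fzd5 probe differed by -0.78 and passed in the other direction. The Fzd5 call was lost without the 3 arrays (adjusted p = 0.071), and in 43 of the 68 cases in which 1 array was left out. Fzd4, the receptor for norrin in retinal endothelium, had a septa median of 10.79 and a vessel median of 10.07, and 30 of 34 septa arrays lay above the vessel median. Its difference was 0.36 ± 0.29 over all arrays and 0.68 without the 3 arrays, where it passed (adjusted p = 0.00528). A dimmer Fzd4 probe, above the 40th percentile on 33 septa and 31 vessel arrays, had a mean difference of 0.886 over all arrays. Fzd8 was 0.71 log2 units lower in septa over all arrays (-0.71 ± 0.29) without passing (adjusted p = 0.0758) and passed without the 3 arrays (-0.75, adjusted p = 0.0491). Fzd1, Fzd2, Fzd3, Fzd9 and Fzd10 did not pass in either case, with differences over all arrays from -0.62 for Fzd2 to 0.23 for Fzd1. The co-receptor Lrp5 was lower in septa (-0.72 ± 0.21, adjusted p = 0.0108), with medians of 10.21 and 10.73, and a second probe, at -0.57, did not pass over all arrays (adjusted p = 0.119) and passed without the 3 arrays (-0.68). Lrp6 did not pass by its brightest probe (0.24 ± 0.30), although a dimmer one was higher in septa (adjusted p = 9.07e-04).

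Of the R-spondins and Lgr receptors, 1 gene was called by its brightest probe. Rspo1, an R-spondin, passed at 0.89 ± 0.29 (limma, adjusted p = 0.0213), with medians of 7.36 in septa and 6.60 in vessel, but not without the 3 arrays (0.64, adjusted p = 0.0573). Rspo3, an R-spondin of endothelium, ranged from 3.73 to 14.21 in septa and differed by 0.51 ± 0.40 without passing, and Rspo2 and Rspo4 differed by -0.24 and -0.34. Lgr4, Lgr5 and Lgr6 differed by -0.37, 0.31 and -0.16 by their brightest probes, none of which passed. A dimmer Lgr6 probe, above the 40th percentile on 6 septa and 18 vessel arrays, was lower in septa at -1.30 ± 0.33 (limma over all probes, adjusted p = 0.00335) and at -1.53 without the 3 arrays (adjusted p = 2.17e-04), so the Lgr6 call depends on the probe. Lgr5, a stem cell marker of the intestine, was above the 40th percentile on 13 septa and 7 vessel arrays.

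Sfrp2, a secreted Frizzled-related protein of fibroblasts, had the largest difference of the 50 genes. Its septa levels ran from 3.74 to 9.72 with a median of 4.54, and 23 of 34 septa arrays were at or under the 40th percentile. Vessel levels ran from 4.13 to 15.69 with a median of 12.66, and 32 of 34 vessel arrays lay above the percentile. No septa array reached the vessel median. The difference of -6.99 ± 0.42 (limma, adjusted p = 2.69e-21) has no exact size, since most septa levels are near background. By condition it ranged from -4.22 in the smoke-exposed knock-down to -9.65 in the 8-month room air control and passed in 7 of 7.

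Within a compartment Sfrp2 varied widely. In vessel, the smoke-exposed knock-down arrays read 4.92, 11.00, 11.74, 11.44 and 4.13, and wild-type room air read 13.53, 13.99, 10.46, 14.20 and 6.44. The low vessel values were therefore 3 arrays, of which 1 is among the low-correlation arrays. Adventitial fibroblast markers (7 genes, mean log2 level) were at 9.18 and 8.85 on the knock-down arrays that read 4.92 and 4.13, and between 9.73 and 10.24 on the other 3 arrays of that group. On the wild-type room air array that read 6.44 they were at 9.98, within the 9.59 to 10.21 of its group. In septa, the highest group was the overexpressing one, at 8.67, 6.99, 6.93, 7.61 and 4.45. The 8-month room air controls read 4.27, 4.03, 4.28, 4.75 and 4.00. The first 4 overexpressing arrays lay above all of these controls and the last within their range, and the change of 2.67 ± 0.79 did not pass (limma, adjusted p = 0.771).

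The other antagonists lower in septa were dim. Dkk2 (-0.94 ± 0.31, adjusted p = 0.0236), an inhibitor or activator depending on context, was above the 40th percentile on 1 septa and 13 vessel arrays, so this difference has no exact size. Sfrp1 (-0.81 ± 0.25, adjusted p = 0.0133) was above it on 7 septa and 17 vessel arrays. Sfrp5 was brighter, with medians of 7.24 and 8.01, and differed by -0.85 ± 0.24 (limma, adjusted p = 0.00634). Wif1, which binds Wnt ligands directly, went the other way at 1.03 ± 0.29 (limma, adjusted p = 0.00771), with medians of 6.01 in septa and 4.58 in vessel, where 9 of 34 arrays lay above the 40th percentile. Dkk1, Dkk3, Dkk4, Sfrp4 and Frzb did not pass over all arrays, with differences from -0.65 for Dkk4 to 0.53 for Dkk1. Without the 3 arrays, Dkk1 and Dkk4 passed in these same directions. A dimmer Dkk4 probe, above the 40th percentile on 5 septa and 2 vessel arrays, had a mean difference of 0.225, in the other direction.

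Axin2, the feedback inhibitor most often used to read beta-catenin activity, was higher in septa. Septa levels ran from 4.21 to 9.23 (median 7.02) and vessel levels from 4.06 to 8.00 (median 5.37), with 31 of 34 septa arrays above the vessel median. The difference was 1.32 ± 0.26 (limma, adjusted p = 9.99e-05), in the same direction in 7 of 7 conditions, but a dimmer Axin2 probe gave 0.21 ± 0.29. Lef1 had medians of 6.39 and 4.70 and differed by 1.40 ± 0.36 (limma, adjusted p = 0.00321). Only 8 of 34 vessel arrays lay above the 40th percentile, so that difference has no exact size. The other Lef1 probes, at -0.33 and 0.17, did not pass. Tcf7, a T cell factor, differed by 0.38 ± 0.34 by its brightest probe, while both dimmer probes, at 1.25 and 1.11, were higher in septa. The call on each of these nuclear readouts thus depended on the probe.

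Markers of several cell types differed between the compartments in these same arrays. The mean level of 8 vascular smooth muscle markers had a median of 9.53 over septa arrays and 12.74 over vessel arrays, without overlap (highest septa array 10.35, lowest vessel array 10.99). Adventitial fibroblast markers stood at 8.19 and 9.92, alveolar type 1 markers at 13.38 and 12.00, and capillary endothelium markers at 12.22 and 10.39. Airway markers had medians of 10.23 in septa and 12.1 in vessel, and pulmonary vein cardiomyocyte markers 5.76 and 8.91. Alveolar type 1 markers on vessel arrays and airway markers on septa arrays were also above the 40th percentile. The part of cell makeup in the Wnt differences was not tested.

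In wild-type room air alone, 5 of 50 Wnt genes passed, against 4.94% of all genes. Fzd7 (3.67 ± 0.85), Wnt7a (3.36 ± 0.89) and Lef1 (2.99 ± 0.94) were higher in septa, and Sfrp2 (-6.03 ± 1.09) and Wnt1 (-2.40 ± 0.70) were lower. With 1 array left out, the Lef1 call was lost in 9 of 10 cases and the Wnt1 call in 7 of 10, and other alternatives took the Lef1 difference down to 0.18. Over the 17 genes called across all conditions, 7 kept their direction in 7 of 7 conditions (Axin2, Fzd5, Wnt2, Wnt7a, Wnt10b, Lrp5 and Sfrp2), 9 in 6 and 1 in 5. Taken 1 condition at a time, 5 of 50 passed in wild-type smoke (2.72% of all genes), 1 in the room air knock-down (0.203%), 3 in the smoke-exposed knock-down (8.76%), 1 in 8-month room air (0.634%), 2 in 8-month smoke (0.439%) and 2 in the overexpressing group (0.344%). For no Wnt gene did the F test of a condition-dependent difference pass (0 of 50 by limma, against 0.0248% of all genes). At an unadjusted p under 0.05 were 7 of the 50.

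**Figure D3:**
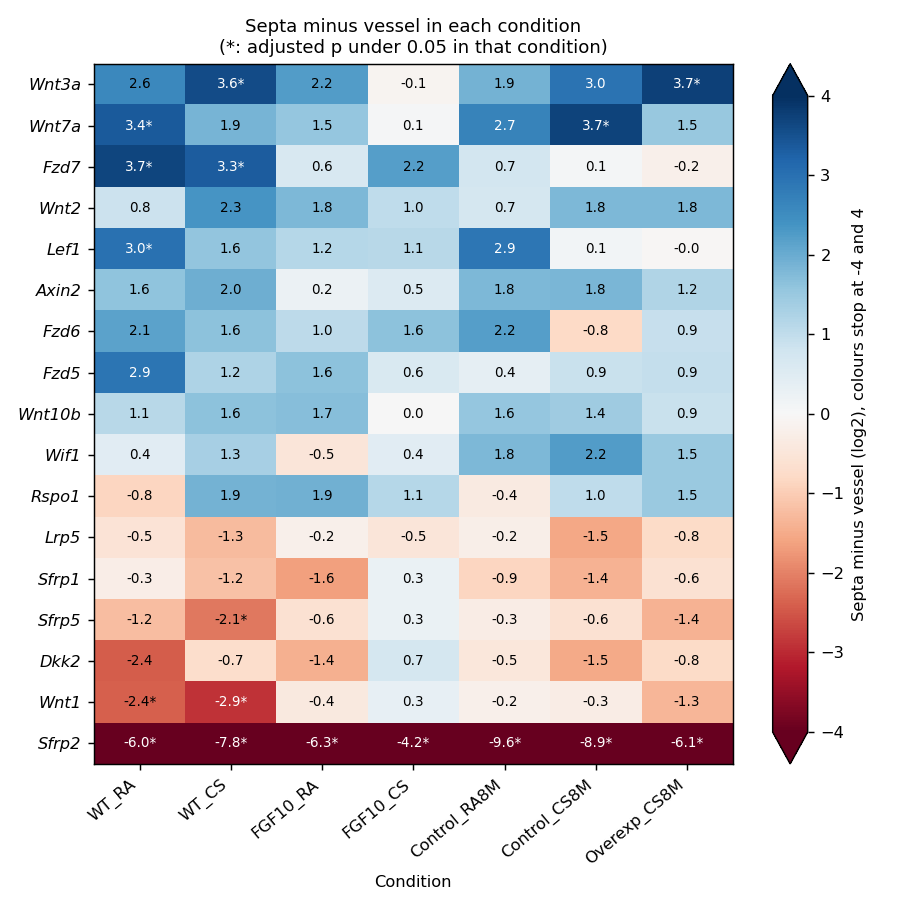
Septa minus vessel difference on the log2 scale of the 17 genes called over all arrays, in each of the 7 conditions, with an asterisk where the adjusted p of that condition is under 0.05 and colours stopping at -4 and 4. The Sfrp2 row runs from -9.65 to -4.22, and the column of the smoke-exposed knock-down, which holds 3 low-correlation arrays, has the values nearest 0 for Wnt3a and Wnt7a.

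Other genes of the pathway came from a separate list of secretion, receptor-level, cytoplasmic, nuclear and planar polarity genes and widely used targets. They gave 12 higher and 3 lower of 60 tested, against 11% and 8.85% of all genes. Prickle2 (2.48 ± 0.29) and Prickle1 (2.19 ± 0.28), core planar polarity proteins, led the higher ones, followed by the Groucho co-repressors Tle1 (2.10 ± 0.44) and Tle4 (1.57 ± 0.40) and the feedback inhibitor Nkd1 (1.48 ± 0.34). Pygo2 (1.36), a beta-catenin cofactor, Apc (1.34) and Btrc (1.13), parts of beta-catenin breakdown, Tspan12 (1.17), a Fzd4 partner, and the negative regulators Apcdd1 (1.00) and Rnf43 (0.92) were also higher, as was the cell cycle target Ccnd1 (0.97). Lower were Myc (-1.50), Tcf7l1 (-1.06), a mostly repressive Tcf factor, and Cthrc1 (-0.81). The median over the 60 genes was 0.10, against -0.01 over all genes.

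The question of how smoke, Fgf10 dose and the 3- and 8-month settings bear on these genes was asked within each compartment, in 9 comparisons per compartment. Of these 18 comparisons, 16 gave no Wnt gene past the threshold with limma, with between 0 and 14 at an unadjusted p under 0.05. A share of all genes set beside these comparisons is the share past the adjusted threshold. It is no background for the counts at an unadjusted p. Comparisons that share a control group (wild-type room air, for example) share its arrays, so their values are not independent.

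The groups of 3 and 8 months differ in more than exposure time, as given above. Over all 7 septa groups, Wif1 was the single gene of 48 tested to differ (limma F test, adjusted p = 0.00929, against 0.317% of all genes). Its septa levels at 3 months were 3.97, 5.60, 4.82, 4.27 and 6.34 in wild-type room air and 5.35, 7.66, 4.06, 6.07 and 4.64 in wild-type smoke. At 8 months they were 8.05, 6.88, 9.40, 5.74 and 8.94 in room air controls and 8.09, 9.15, 8.35, 6.28 and 7.58 in smoke controls. Of the 8-month room air controls, the array at 5.74 lay within the 3-month wild-type room air range, and the others above it. Wild-type smoke arrays at 3 months reached 7.66, which overlapped both 8-month control groups. The knock-down groups ranged from 3.86 to 6.59 and the overexpressing group from 5.96 to 7.68.

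In room air alone, the 8-month minus 3-month change of Wif1 in septa was 2.80 ± 0.68, which did not pass over all genes (limma, adjusted p = 0.467, against 0.0046% of all genes, and 0.0681 without the 3 arrays, against 0.11%). A comparison added after these values had been seen set the room air and smoke groups of 8 months against those of 3 months. Wif1 was then 2.57 ± 0.48 higher at 8 months (limma, adjusted p = 0.0181) and the lone gene of 48 called, against 0.0644% of all genes. Since this comparison was chosen for Wif1 and Fzd7, its p describes the change seen and is no independent support. Neither Wif1 change has an exact size, since several wild-type septa arrays of 3 months were near background. From wild-type room air to 8-month room air septa, the median level of macrophage markers went from 9.49 to 8.80, of B cell markers from 9.88 to 9.36 and of large vessel endothelium markers from 10.92 to 11.33, while alveolar type 1 markers stood at 13.36 in both. Their part in the Wif1 value was not tested.

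In vessel, Fzd7 was the one gene of 48 that differed over the 7 groups (limma F test, adjusted p = 0.00605, against 2.04% of all genes). Vessel levels at 3 months were 4.78, 3.72, 6.45, 3.81 and 4.39 in wild-type room air and 7.40, 6.19, 5.74, 3.53 and 3.83 in wild-type smoke. At 8 months they were 5.46, 9.94, 9.12, 8.00 and 9.09 in room air controls, 10.12, 9.54, 9.82, 7.47 and 9.33 in smoke controls, and 8.38, 8.12, 7.70, 9.04 and 8.09 in the overexpressing group. The wild-type groups of 3 months were low, with 6 of their 10 arrays near background, and 1 room air control of 8 months overlapped them.

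The change from 3 to 8 months in room air vessel was 3.69 ± 0.79 for Fzd7 (limma, adjusted p = 0.0236, the lone call among 48 genes, against 0.862% of all genes). Leaving out any 1 of Control_RA8M_Vessel replicates 2, 3 or 5 or WT_RA_Vessel replicate 2 took the count to 0. The Fgf10 knock-down in room air at 3 months read 8.00, 8.38, 7.23 and 7.87, all above the wild-type room air arrays and within the range of the 8-month room air controls. That change of 3.24 ± 0.84 did not pass over all arrays (adjusted p = 0.0878, against 0.32% of all genes) and passed without the 3 arrays (adjusted p = 0.0389, against 0.933%). Fzd7 in septa was between 7.26 and 8.88 in wild-type room air and between 8.48 and 9.56 in 8-month room air.

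In the comparison of both ages over room air and smoke, added after the values were seen, Fzd7 in vessel was 3.80 ± 0.56 higher at 8 months (limma, adjusted p = 6.67e-04) and Wnt1 1.68 log2 units lower (-1.68 ± 0.49, adjusted p = 0.0491), against 3.68% of all genes called. Without the 3 arrays, Dkk3 (1.85 ± 0.50) and Sfrp5 (-1.42 ± 0.42) passed too, against 7.23% of all genes. Dkk3 is a divergent Dickkopf protein. Cell type markers moved between the same vessel groups. From wild-type room air to 8-month room air, median marker levels went from 7.28 to 8.46 for macrophages, from 7.78 to 8.86 for T cells, from 9.95 to 10.74 for capillary endothelium, from 11.34 to 12.13 for alveolar type 2, from 11.30 to 11.94 for alveolar type 1 and from 7.94 to 11.15 for pulmonary vein cardiomyocytes, while vascular smooth muscle markers stood at 13.01 and 13.06. The wild-type room air vessel arrays had median correlations of 0.691 to 0.805 with the other vessel arrays, against 0.831 to 0.870 for the 8-month room air controls. The part of these in the Fzd7 value was not tested.

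**Figure D4:**
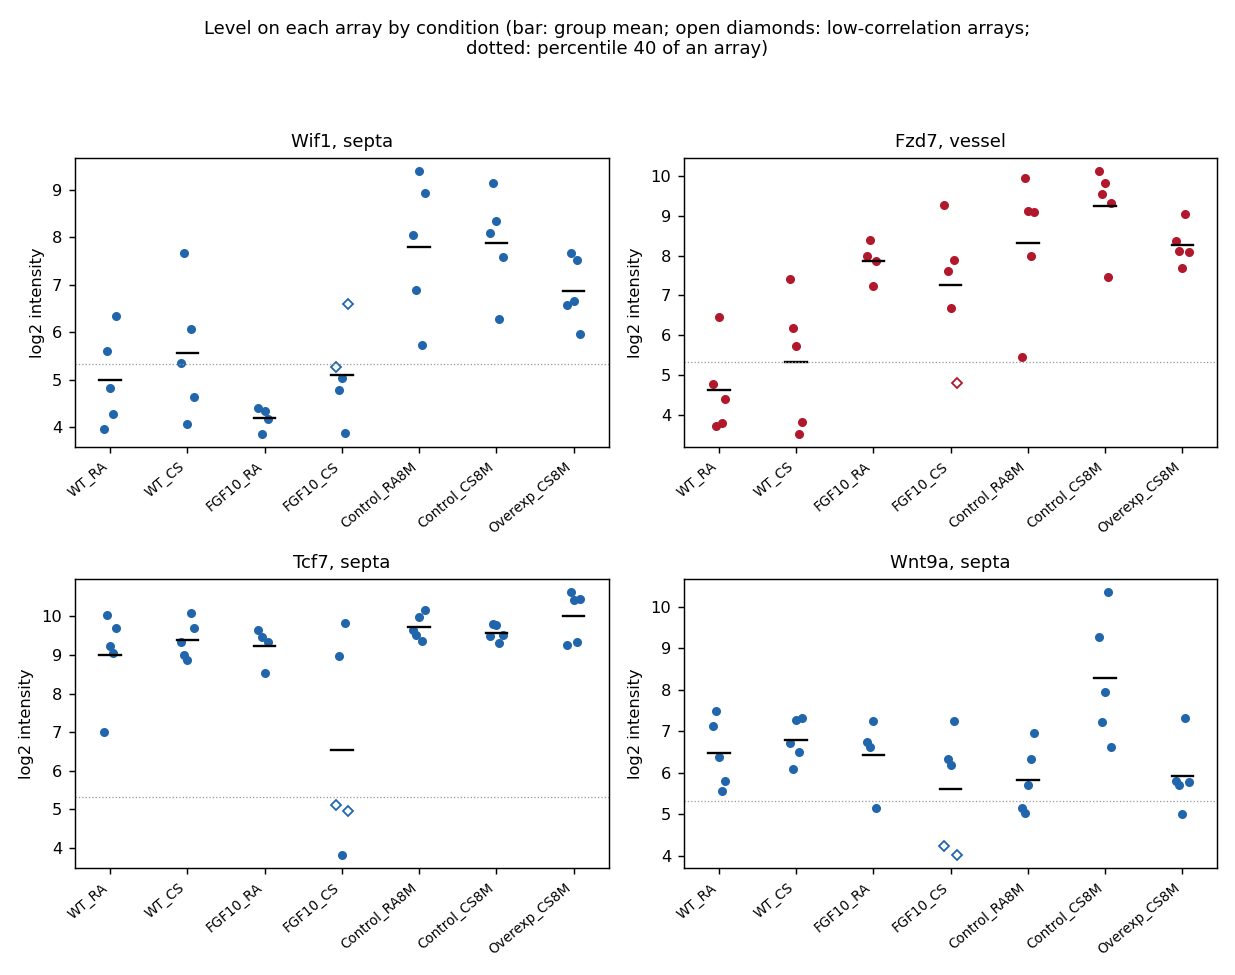
Log2 intensity on each array by condition for Wif1 in septa, Fzd7 in vessel, Tcf7 in septa and Wnt9a in septa, with a bar at each group mean, open diamonds for low-correlation arrays and a dotted line at 5.32. The group means of Wif1 in septa and Fzd7 in vessel are higher in the 3 groups of 8 months than in the wild-type groups of 3 months, and Wnt9a lies highest in the 8-month smoke controls.

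Smoke exposure alone moved no Wnt gene past the threshold over all arrays. After 3 months in wild type, 0 of 48 passed in septa, against 0.0046% of all genes, and 0 of 48 in vessel, against 0.142%. At an unadjusted p under 0.05 by limma were 0 Wnt genes in septa and 5 in vessel. In vessel, the smallest unadjusted p belonged to Rspo1, at 7.85, 8.45, 8.46, 5.27 and 6.48 in room air and 6.60, 4.54, 4.97, 5.00 and 4.66 in smoke. Of the smoke values, 4 were near background, and the change of -2.15 ± 0.75 did not pass (adjusted p = 0.23). The difference between the smoke effects in septa and vessel passed for no Wnt gene at 3 months (1 at an unadjusted p under 0.05 by limma) or at 8 months (4).

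After 8 months, Wnt9a in septa read 9.28, 7.22, 7.96, 10.35 and 6.63 in smoke controls and 5.16, 5.02, 5.70, 6.32 and 6.96 in room air controls. The groups overlapped by 1 array on each side. The 10.35 came from replicate 4, whose median correlation of 0.725 was the lowest in septa apart from the low-correlation arrays, and without it the change was 1.94 (adjusted p = 0.667). Macrophage markers had medians of 11.88 in these smoke controls and 8.80 in the room air controls, without overlap, and their part in the Wnt9a value was not tested. The change of 2.45 did not pass over all arrays (± 0.66, limma, adjusted p = 0.232, against 0.023% of all genes) and passed without the 3 arrays of other groups (± 0.57, adjusted p = 0.0359, against 0.644%). In the overexpressing group after smoke, Wnt9a read 5.79, 5.71, 5.00, 7.31 and 5.77, a change of -2.37 ± 0.66 against the smoke controls that did not pass (adjusted p = 1.00). Wnt9a is a ligand known from joint and liver development. No Wnt gene passed over all arrays in either comparison of the overexpressing group in septa (2 and 3 of 48 at an unadjusted p under 0.05 by limma) or in vessel (2 and 1), where at most 0.04% of all genes passed.

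In room air, the knock-down called 0 of 48 Wnt genes in septa, against 0% of all genes, and 0 of 48 in vessel, against 0.32%. At an unadjusted p under 0.05 by limma were 1 in septa and 6 in vessel. Rspo1 in septa had the smallest p, with a change of 2.12 ± 0.80 that did not pass. Smoke within the knock-down called 0 in septa, against 0% of all genes, and 0 in vessel, against 0.182%. The test of unequal smoke effects in knock-down and wild type called 0 in both, against 0% and 0.0222%. At an unadjusted p under 0.05 by limma were 10 and 4 Wnt genes for smoke within the knock-down. For the unequal effects these were 7 and 7.

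The knock-down under smoke gave 1 Wnt gene in septa. Tcf7 read 5.10, 8.97, 3.81, 9.84 and 4.95 in the knock-down and 9.34, 9.01, 8.86, 10.08 and 9.71 in wild type. The low values were replicates 1, 3 and 5, of which 1 and 5 are low-correlation arrays. Tcf7 fell by 2.87 (-2.87 ± 0.74 over all arrays, adjusted p = 0.0493 with limma, against 2.89% of all genes) and differed by -1.86 ± 0.77 without the 3 arrays, where neither it nor any other gene passed (adjusted p = 0.999, against 0%). The dimmer Tcf7 probes changed by 0.17 and 0.63. The mean of 6 T cell markers read 8.67, 8.73, 6.80, 9.28 and 5.98 on the same knock-down arrays and between 8.21 and 9.07 in wild type, and their part in the Tcf7 value was not tested. Among the other pathway genes, Tle4 (-4.70), Gpc3 (-3.47) and Cd44 (-3.08) passed in septa over all arrays and none without the 3 arrays.

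In vessel, the same comparison called 0 of 48 Wnt genes over all arrays, against 5.37% of all genes, with 14 at an unadjusted p under 0.05 by limma. Without FGF10_CS_Vessel replicate 5 and the septa arrays it called 5, against 6.84%. Wnt1 then fell by 2.44 and Wnt11 by 2.10, and Wnt3a, Rspo1 and Fzd7 rose by 3.52, 2.52 and 2.53. Wnt3a read 7.87, 8.43, 9.68, 8.28 and 4.01 in the knock-down and 4.96, 4.53, 4.98, 5.05 and 5.74 in wild type. The first 4 knock-down arrays lay above every wild-type array, and the last, the low-correlation array, lay below them all. With it, the change was 2.61 ± 0.95 (adjusted p = 0.0997), and without it 3.52 ± 0.89 (adjusted p = 0.0174), neither with an exact size, since all wild-type arrays but the one at 5.74 were near background.

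Wnt1 read 9.34, 5.62, 5.54, 7.59 and 11.00 in the knock-down vessel arrays and 7.63, 8.55, 10.13, 10.66 and 10.33 in wild type, so the groups overlapped. The 11.00 came from the low-correlation array, and the change was -1.64 ± 0.69 with it (adjusted p = 0.162) and -2.44 ± 0.60 without it (adjusted p = 0.0153). Wnt11 had the same order of the knock-down arrays, at 8.16, 6.07, 5.22, 6.86 and 8.46 against 7.83, 7.16, 9.20, 9.90 and 9.28. Among the other pathway genes, Ror2, a receptor for Wnt5a, was 2.57 ± 0.56 higher in vessel over all arrays and 2.46 without the 3 arrays, Dvl3 changed by -2.92 and -2.36, and the kinase Csnk1e by -1.19 and -1.37, all passing in both fits.

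**Figure D5:**
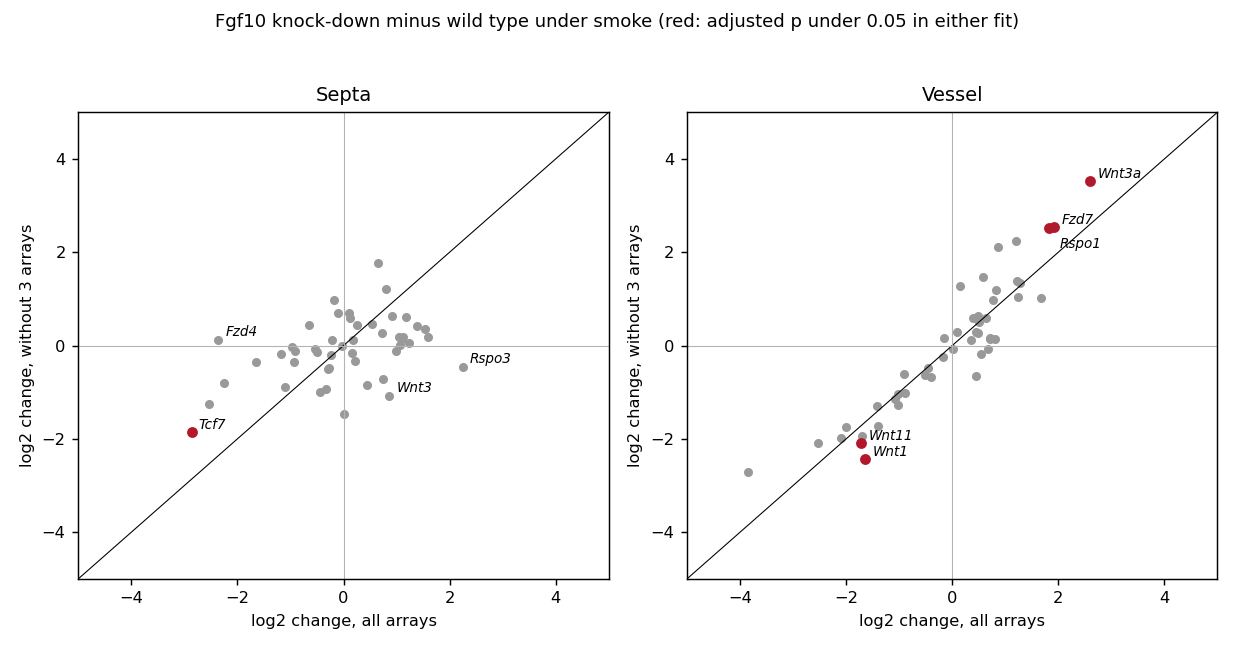
Change of the Wnt genes in the Fgf10 knock-down against wild type under smoke, on the log2 scale, over all arrays (horizontal) and without the 3 low-correlation arrays (vertical), for septa and vessel, with a line of equality and genes past the threshold in either fit in red. Fzd4 in septa moves from -2.36 to 0.12, and in vessel Wnt3a moves from 2.61 to 3.52, Tcf7 from 0.87 to 2.10 and Rspo4 from 0.44 to -0.65.

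The genes followed through every comparison, Axin2, Lef1, Tcf7, Lgr5, Lgr6, Wnt2, Wnt5a, Wif1, Sfrp1 and Sfrp2, gave 1 call in the 18 comparisons, that of Tcf7. Axin2 changed by between -1.16 and 1.87, with the largest value at 8 against 3 months in room air septa, and its smallest adjusted p was 0.209. Wnt5a changed by between -2.94 and 1.05, Wnt2 by between -1.91 and 2.86 and Lef1 by between -2.01 and 1.47. The lowest Wnt5a value came from the septa comparison of the smoke effect between knock-down and wild type, which holds 2 low-correlation arrays, and without them the lowest was -1.91. A change that misses the threshold with 4 or 5 arrays a group does not show that the levels were alike.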

How the data were processed

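Expression was measured on single-colour Agilent arrays in 68 laser-microdissected mouse lung samples. The deposited values are log2 intensities, which the authors had already quantile normalised, as their equal percentiles show. Limma is named in the submitters' processing notes without a version, and how background was corrected is not stated in the labels or headers used. Depth has no counterpart on arrays, so the number of arrays (4 or 5 a group) limits the precision.

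Of 62976 features, 43941 had 1 gene symbol in the platform annotation, 19035 had none and stayed unnamed, and 1424 probes were renamed by accession through RefSeq. The Wnt genes were matched by platform symbol. Groups follow the titles, and the series calls the replicates biological. Genes above the 40th percentile of an array on at least 4 arrays, with no missing value (44 values were missing), were tested: 21752 in septa, 22517 in vessel and 24150 in the joint fit. Limma 3.58.1 in R 4.3.3 fitted group means (7 per compartment, 14 jointly), with two-sided moderated tests, Benjamini-Hochberg adjustment over all genes tested and a threshold of 0.05. Scripts were tested on simulated data. Promoters were searched over the 250 bases before the RefSeq start, leaving out the 50 transcribed bases of the table. Figures were drawn with matplotlib.

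The members, gene lists and comparisons were chosen with earlier results of these data known. Genes named in the text are those past the threshold in a comparison, all members for septa against vessel, up to 5 members with the smallest unadjusted p where fewer than 5 passed, and 10 members followed throughout. Other pathway genes are named where they passed.

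Whether replicate numbers pair the samples is not stated in the labels used. Deviations of same-numbered arrays from their group means correlated with a median of 0.00897 in septa, -0.00665 in vessel and 0.0383 between the compartments. For arrays of different numbers the medians were -0.000555, 0.00151 and -0.0119. These medians gave no clear sign of pairing, but they cannot exclude that septa and vessel arrays came from the same animals. The joint fit treated all arrays as independent, and the fit with the number as a block is an alternative only. Other alternatives were array weights, the mean of all probes, no filter, only the groups compared, the conflicting array moved to its other label, the 3 low-correlation arrays left out and each array left out in turn.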

Additional observations from a re-analysis of the deposited data

Results flagged for a closer look

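Dixon's criterion at the 95% level was applied in 98 checks, each of 1 chosen Wnt gene in 1 group of 4 or 5 arrays. In 8 of them an array stood apart from the rest of its group, which chance gives in about 1 of 20 checks. Checks of different genes share arrays. Sfrp2 read 15.69 on WT_CS_Vessel replicate 1, above a next value of 12.22. Fzd7 read 12.43 on Control_CS8M_Septa replicate 4, where the next value was 8.85. Wnt1 read 7.04 on Control_CS8M_Vessel replicate 4, under its group, and 8.86 on Overexp_CS8M_Vessel replicate 4, above its group. Rspo1 read 6.60 on WT_CS_Vessel replicate 1, where the next value was 5.00 and the level near background. Wnt3a read 7.29 on WT_CS_Septa replicate 2 and Wnt7a 8.11 on Overexp_CS8M_Septa replicate 4, both under their groups. Axin2 read 8.41 on Overexp_CS8M_Septa replicate 1, above the next value of 6.66. No cause of these values was tested.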

How the results depend on the processing

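The counts of Wnt genes higher in septa than in vessel stayed between 10 and 13 under every alternative, and those lower stayed between 6 and 9 except with array weights, which gave 11. Of the 17 calls over all arrays, 15 were shared with the 20 calls without the 3 low-correlation arrays (Fzd5 and Rspo1 lost). With array weights, 6 genes had a condition-dependent compartment difference, 3 differed over the septa groups, 13 over the vessel groups and 11 in the knock-down under smoke in vessel. Array weights also gave 1 in 8-month smoke septa and 1 in overexpressing against room air septa, and 0 for 8 against 3 months in vessel. With array weights, and with only the groups compared, calls were counted for the Wnt genes only. No share of all genes stands beside those counts, so they are no result about the Wnt genes as a set. Leaving out the 3 arrays gave 9 calls in wild-type room air compartments and 2 over the vessel groups. No share of all genes is given for these counts, so they too are no result about the Wnt genes as a set. Across all conditions, the share of all genes called between septa and vessel rose from 19.8% to 32.4% without these arrays. Leaving them out gave 5 in the vessel knock-down under smoke (against 6.84% of all genes). It also gave 1 in the vessel knock-down in room air (0.933%) and 1 in 8-month smoke septa (0.644%). The Tcf7 call in the septa knock-down under smoke went to 0 with array weights, the conflicting array moved, the mean of all probes, no filter, only the groups compared, or without the 3 arrays. Fitting only the groups compared gave 2 calls in wild-type room air compartments and 0 for 8 against 3 months in vessel. The comparison of both ages over room air and smoke, chosen after seeing the data, gave 1 call in septa and 2 in vessel.

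Leaving out each array in turn moved the wild-type room air compartment count between 3 and 6, the septa F test between 1 and 5, the vessel F test between 1 and 2, and 8 against 3 months in vessel between 0 and 1. It moved the septa knock-down under smoke between 0 and 7, its vessel counterpart between 0 and 5, the vessel knock-down in room air between 0 and 1, smoke in knock-down septa between 0 and 8 and unequal smoke effects in septa between 0 and 1. Counts of 4 or more in septa came without FGF10_CS_Septa replicate 2, 3 or 4, which leaves the low-correlation arrays a larger share of that group. Fzd4 in the septa knock-down under smoke changed sign from -2.36 to 0.44 with array weights and to 0.12 without the 3 arrays, and its unequal smoke effect in septa from -2.98 to 0.010 with array weights. The causes were not tested. Shares of all genes called were not counted with each array left out.

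With the replicate number as a block, which pairs no samples by the labels, 11 genes were higher and 8 lower in septa, and no count of calls moved by over 1.5 times. Of 68 arrays, 19 correlated best with arrays of their own number. Many Wnt genes lie near background, which limits how exactly their differences can be sized.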
